A study of Mus musculus with 6 samples.

Results

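The respiratory chain and the ATP synthase were followed here through 91 genes out of 19938 measured on whole-transcript arrays of CCR6+ group 3 innate lymphoid cells (ILC3s). The members were taken by name: every gene with 1 platform symbol beginning with Nduf, Uqcr, Atp5 or Cox4 to Cox8, together with Sdha, Sdhb, Sdhc, Sdhd, Cyc1 and Cycs. They divide into 36 complex I subunits, 7 complex I assembly factors, 4 genes of complex II, 9 of complex III, cytochrome c (Cycs), 17 of complex IV and 17 of complex V. For the 18 members with several probe sets, the values are those of the brightest one on average.

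ILC3s are innate lymphocytes of the gut that make IL-17 family cytokines, and CCR6 marks their lymphoid tissue inducer-related subset. The cells were sorted from small intestinal lamina propria of adult C57BL/6 mice. The control group (Tnfsf11fl/fl, 3 arrays) carries floxed alleles of Tnfsf11, the gene of the TNF family cytokine RANKL. The RANKL-deficient group (3 arrays) carries the same floxed alleles together with a Cre allele. No Cre is named for the control group, so Cre and the deletion cannot be told apart, and the labels do not say how many mice gave a sample. The p-values therefore measure the spread between these arrays, which may be technical.

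Complexes I and II pass electrons from NADH and succinate to ubiquinone. Complex III passes them on to cytochrome c and complex IV to oxygen. The proton gradient built by complexes I, III and IV drives complex V, the ATP synthase, whose membrane ring of c subunits turns a central stalk inside the catalytic F1 head. Most subunits are encoded in the nucleus and a few in mitochondrial DNA. Nuclear subunit genes are known targets of the transcription factors NRF1, GABPA of the ETS family, YY1 and the estrogen-related receptors (ERRs).

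Promoter stretches are shown for the 3 genes of the ATP synthase c subunit, one of which had the largest difference among the members, and for Sdhb and Cycs, which share a motif with one of them. Each stretch holds the 120 bases before the transcription start, 5′ to 3′ on the gene's strand, from RefSeq on GRCm38.p6. Capitals mark a match to the NRF1 core GCGCATGC or to the ERR motif TCAAGGTCA on either strand. They lie at chr11:96075632-96075751 (minus strand, Atp5g1), chr15:102671048-102671167 (minus strand, Atp5g2), chr2:73911327-73911446 (minus strand, Atp5g3), chr4:140961151-140961270 (plus strand, Sdhb) and chr6:50566570-50566689 (minus strand, Cycs).
Atp5g1: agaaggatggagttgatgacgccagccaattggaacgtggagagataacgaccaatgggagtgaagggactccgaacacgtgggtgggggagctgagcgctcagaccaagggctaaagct
Atp5g2: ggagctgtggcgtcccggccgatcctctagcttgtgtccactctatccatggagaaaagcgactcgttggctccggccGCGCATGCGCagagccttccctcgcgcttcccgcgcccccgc
Atp5g3: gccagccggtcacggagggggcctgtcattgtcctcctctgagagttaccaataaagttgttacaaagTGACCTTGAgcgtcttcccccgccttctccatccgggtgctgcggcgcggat
Sdhb: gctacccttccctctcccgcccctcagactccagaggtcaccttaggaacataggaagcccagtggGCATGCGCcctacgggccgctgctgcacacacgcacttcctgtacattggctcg
Cycs: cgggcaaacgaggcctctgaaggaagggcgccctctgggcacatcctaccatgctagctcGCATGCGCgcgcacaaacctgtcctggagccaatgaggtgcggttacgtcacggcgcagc

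Promoter windows of 250 bases before to 50 after the start were found for 74 of the 91 members. The NRF1 core lay in the windows of 13 of these 74 genes (17.6%), against 3.05% of the 27025 genes with a window. The ETS motif CCGGAAG lay in 18 (24.3%, against 9.93%), the YY1 motif AAGATGGC in 10 (13.5%, against 3.19%) and the ERR motif in 2 (2.70%, against 0.466%), both strands searched. In Atp5g2 the NRF1 core overlaps its own reverse complement. No match to either motif lies in the stretch shown for Atp5g1. Members with the NRF1 core had a median log2 difference, RANKL-deficient minus control, of 0.31, and members without it 0.17, while the 667 tested genes with the core had a median of −0.0061. For the ETS motif the medians with and without were 0.26 and 0.18, and for the YY1 motif they ran the other way, 0.10 and 0.21. The 2 members with the ERR motif are Atp5g3 and Sdhd. Of the 13 with the NRF1 core, 10 measured higher, from Atp5g2 at 1.14 and Sdhb at 0.66 down to Ndufaf4 at −0.67. A match says only that these letters stand in the window.

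Some arrays stood apart before any comparison. Control array 1 had the narrowest spread of log2 values over genes (SD 1.86) and correlated least with the others on average (0.960), followed by control array 2 (SD 1.93, correlation 0.970). On the other arrays the SD was 1.99 to 2.01 and the correlation 0.975 to 0.977. The limma array weights gave another order, with 0.45, 1.43 and 0.60 for control arrays 1 to 3. RANKL-deficient arrays had weights of 1.32 to 1.47. By the weights, control arrays 1 and 3 stood apart, so values against control array 3 alone are not values against a better control. The targeted gene Tnfsf11 read 8.76, 8.41 and 8.25 in control arrays 1 to 3 and 8.36, 8.65 and 8.52 in RANKL-deficient arrays 1 to 3. The groups overlapped (difference 0.035, limma adjusted p = 0.963). The position of its probe set relative to the floxed exons is not given in the sources used here, so this value checks no label.

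The mean log2 level of the 10 measured ILC3 markers was between 9.52 and 9.73 on every array. Ccr6, the gene of the sorted surface marker, averaged 9.13 in control and 9.45 in RANKL-deficient arrays. Ncr1, which marks another ILC3 subset and natural killer cells, averaged 4.70 and 3.77, with groups apart (difference −0.93, SE 0.36). It read 4.37, 5.57 and 4.15 in control and 3.76, 3.92 and 3.64 in RANKL-deficient arrays, so control array 2 raised the control mean. Of the 4984 genes ranked just below the median level, which include Ncr1, 73.8% measured lower. In 11.8% of them the groups lay apart with lower values. Among T cell markers, Cd3g, the gamma chain of the T cell receptor complex, averaged 6.69 in control and 4.78 in RANKL-deficient arrays, without overlap. The other CD3 chains Cd3e and Cd3d differed by −0.70 (SE 0.31) and 0.26 (SE 0.31), with overlapping groups. Cd4 and Lat, also on the T cell list, differed by 0.69 and 0.51. Their levels were far higher, at percentiles 95.1 and 96.8 of all genes against 60.8 for Cd3g. Over the 8 measured T cell markers, 4 were higher and 4 lower, and their mean level was 6.10 to 6.51 in control and 6.06 to 6.32 in RANKL-deficient arrays. Markers of dividing cells had higher values for 10 of 10 genes (median difference 0.45; Mcm4 0.83, Mcm3 0.87, Top2a 1.10), with a mean level of 5.77 to 6.22 in control and 6.54 to 6.61 in RANKL-deficient arrays. The part of these cells in the results was not tested. B cell, myeloid, epithelial and stromal markers had median differences of −0.13, −0.17, −0.19 and −0.12. RMA values have no true zero, so no marker can be called absent.

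Over the respiratory chain and ATP synthase as a whole, 66 of 91 members measured higher in RANKL-deficient cells and 25 lower, with a median log2 difference of 0.17. Over all 19938 genes, 39.5% measured higher and the median was −0.054. The markers of dividing cells lay in the same direction, as given above. In these bulk samples, fewer cells of a type and less RNA per cell cannot be told apart. No member passed an adjusted p of 0.05 (limma, Benjamini-Hochberg over all genes), where 0.00502% of all genes did, that is 1 gene. The smallest adjusted p among the members was 0.245, for Atp5g2. At an unadjusted p under 0.05, 17 members were higher (18.7%) and 2 lower (2.20%), against 4.25% and 3.9% of all genes.

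For some members the groups were fully separate. In 25 (27.5%) every RANKL-deficient array lay above every control array, against 5.28% of all genes. In 5 (5.49%) every RANKL-deficient array lay below, against 9.08% of all genes.

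These shares varied with a gene's level. Of the members, 77 were among the 4985 genes with the highest mean level, and over those genes the median difference of all genes was 0.080, with 61.0% higher. The 77 members had a median of 0.19 and 61 were higher. Groups lay apart with higher values for 24 of the 77 (31.2%), against 12.0% of those 4985 genes, and with lower values for 3 (3.90%), against 5.44%. After quantile normalization of the deposited values, 55 of 91 members were higher with a median of 0.075. The 4985 highest-level genes then had a median of −0.0075, with 49.0% higher. Of the members, 15 lay apart with higher values, and the share of all genes under that normalization was not computed. After cyclic loess normalization 56 were higher with a median of 0.082, while the 4985 highest-level genes then had a median of 0.0027. With control arrays 1 and 2 left out, 72 members were higher with a median of 0.12, against 0.00059 for all genes, where the lone control array is assumed to vary like the other group.

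**Figure D1:**
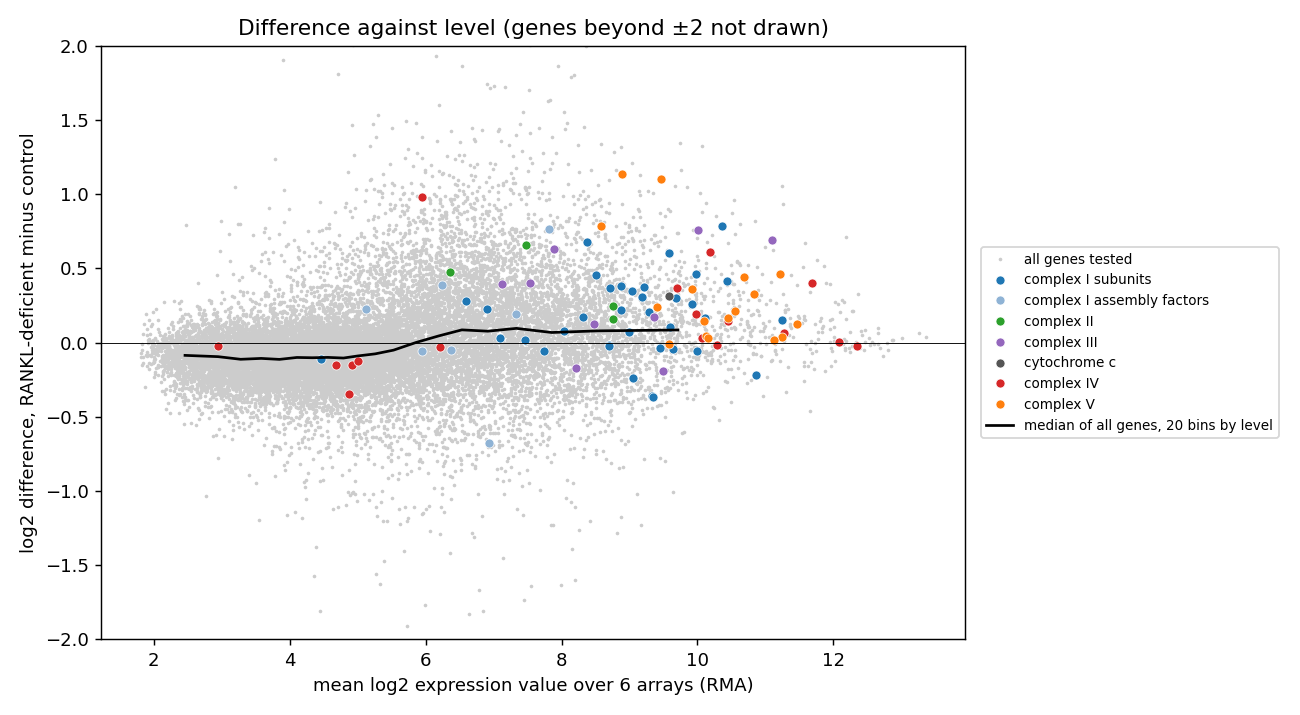
Difference between the groups (vertical axis, log2, RANKL-deficient minus control) against mean log2 level over the 6 arrays (horizontal axis) for all tested genes in grey and the members coloured by complex; the black line is the median of all genes in 20 bins by level. Most members lie at the right, where the line itself is above 0, and they scatter from −0.67 (Ndufaf4) to 1.14 (Atp5g2).

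Array by array, the members were least often at their lowest value in RANKL-deficient cells. Control array 2 held the lowest value of 35 members, control array 1 of 23 and control array 3 of 14, against 7, 5 and 7 for RANKL-deficient arrays 1 to 3. Among the 4985 highest-level genes, control array 1 was lowest most often (36.6% of genes) and control array 2 next (22.1%), while among the members control array 2 came first (38.5%). The median over members of the deviation from a gene's own mean was −0.062, −0.12 and −0.044 on the control arrays and 0.096, 0.11 and 0.029 on the RANKL-deficient arrays. The spread between arrays was wider in control cells, with a median SD over members of 0.24 against 0.13, as it was over all genes (0.22 against 0.15).

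**Figure D2:**
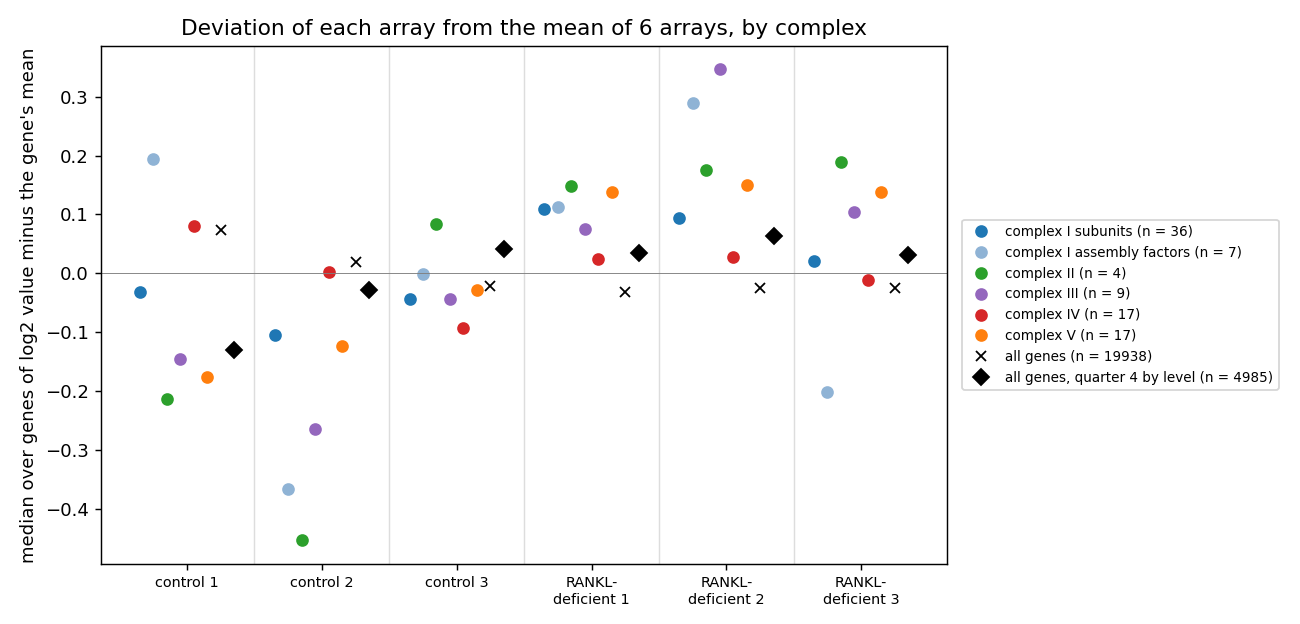
For each array (horizontal axis), the median over genes of the log2 value minus that gene's mean over 6 arrays (vertical axis), by complex, with all genes (crosses) and the 4985 highest-level genes (diamonds). Complex V lies between −0.18 and −0.027 on the control arrays and between 0.14 and 0.15 on the RANKL-deficient arrays, and complex IV shows no such separation.

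In complex V, the ATP synthase, 16 of 17 genes measured higher, the median was 0.21, and for 7 (41.2%) the groups lay apart with higher values, against 12.0% of the 4985 highest-level genes, which include all 17. The median was 0.070 under quantile normalization and 0.11 without control arrays 1 and 2. The largest difference was in the proteolipid ring. Its c subunit is made from 3 genes, Atp5g1, Atp5g2 and Atp5g3, whose mature products are the same protein. Atp5g2 read 8.46, 8.19 and 8.33 in control and 9.30, 9.34 and 9.75 in RANKL-deficient arrays. All RANKL-deficient arrays lay well above the highest control array, and the means of 8.33 ± 0.13 and 9.46 ± 0.25 (SD, n = 3 each) were 2.20-fold apart on the linear scale (log2 difference 1.14, SE 0.16, limma adjusted p = 0.245).

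Atp5g1 read 8.30, 7.82 and 8.44 in control and 8.74, 8.83 and 9.34 in RANKL-deficient arrays, again without overlap. Its difference was 0.78 (SE 0.23, limma adjusted p = 0.506). Atp5g3 read 10.51, 10.15 and 10.75 in control and 11.05, 10.84 and 10.84 in RANKL-deficient arrays. The groups were separate by a small gap and differed by 0.44 (SE 0.18). The differences of the 3 c subunit genes therefore ran the same way, while none passed the adjusted threshold.

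The other probe sets of these genes gave like values. For Atp5g2 they differed by 1.00 and 1.26, and for Atp5g1 by 0.67. Probe sets of genes with near-identical copies can share signal, so the split between the c subunit genes is uncertain. Without control arrays 1 and 2 the difference of Atp5g2 was 1.13, that of Atp5g1 0.53 and that of Atp5g3 0.16, each against the lone control array 3.

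**Figure D3:**
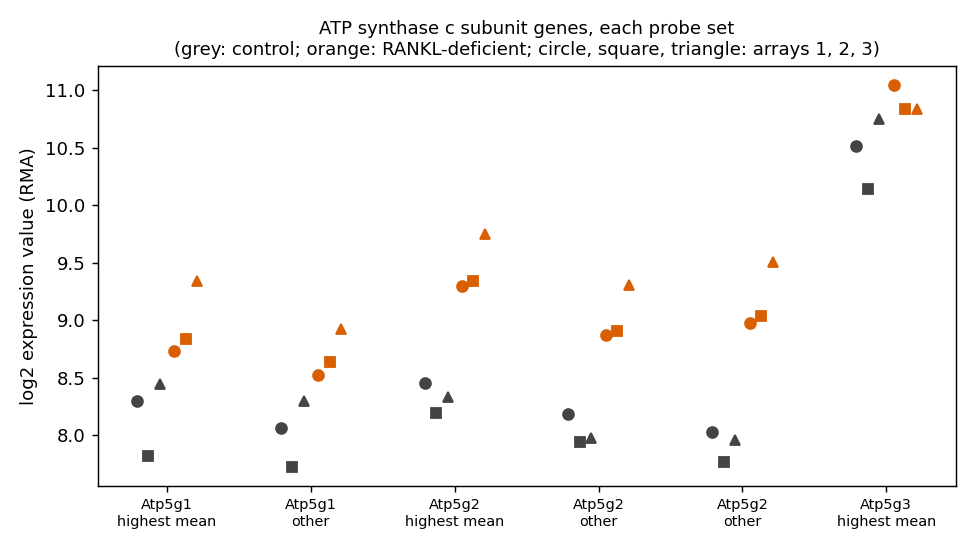
Log2 value on each array (vertical axis) for every probe set of the ATP synthase c subunit genes (horizontal axis), control in grey and RANKL-deficient in orange. On all 6 probe sets the RANKL-deficient arrays lie above the control arrays, by 1.00 to 1.26 on average for Atp5g2 and by 0.44 for Atp5g3.

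In the F1 head the catalytic subunits and the central stalk are described separately, a grouping chosen with the values known. Atp5a1 and Atp5b, the alpha and beta subunits that bind nucleotide, differed by 0.034 (SE 0.11) and 0.15 (SE 0.13), and their groups overlapped. The 3 stalk subunits lay apart. Atp5e, the epsilon subunit, read 10.88, 10.95 and 11.10 in control and 11.41, 11.38 and 11.54 in RANKL-deficient arrays, a difference of 0.46 (SE 0.12, limma adjusted p = 0.446).

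Atp5d, the delta subunit, read 8.54, 8.55 and 9.67 in control and 9.93, 9.82 and 10.31 in RANKL-deficient arrays. Control array 3 stood between the other control arrays and the RANKL-deficient ones. The mean difference of 1.10 (SE 0.32, limma adjusted p = 0.513) was 0.35 against control array 3 alone. Atp5c1, the gamma subunit, read 9.52, 9.94 and 9.75 in control and 10.08, 10.16 and 10.04 in RANKL-deficient arrays, a difference of 0.36 (SE 0.15).

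The peripheral stalk, which holds the head still, had smaller differences than the central stalk: 0.24 for Atp5o, 0.17 for Atp5h, 0.047 for Atp5j and −0.0075 for Atp5pb, with overlapping groups in each. Among the small membrane subunits, Atp5k differed by 0.33 and Atp5l by 0.13, and the 6 probe sets of Atp5l gave 0.12 to 0.19. The others, Atp5md, Atp5mpl and Atp5j2, differed by 0.21, 0.036 and 0.016.

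**Figure D4:**
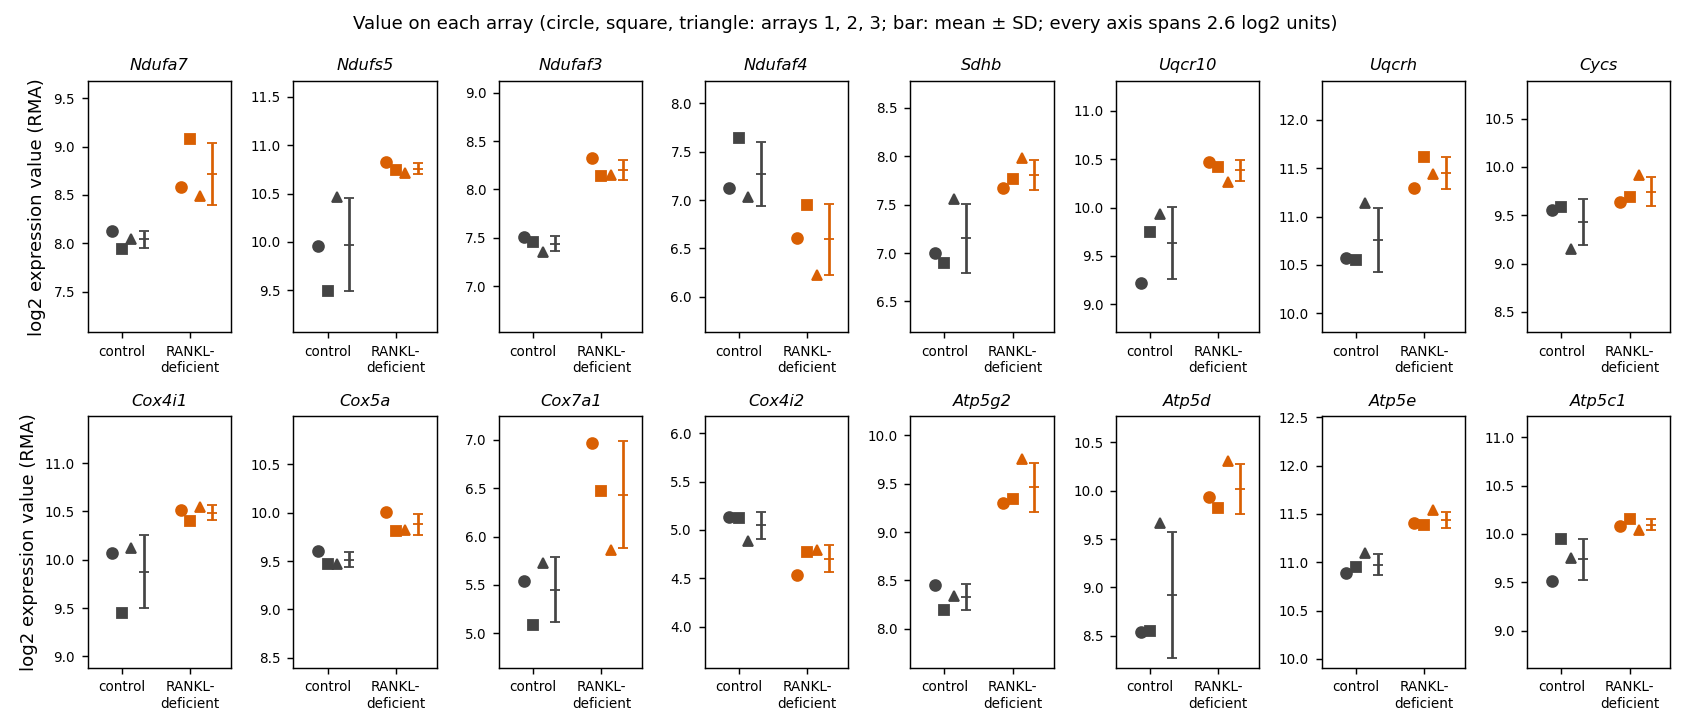
Log2 value (vertical axis, each panel spanning the same range) on control and RANKL-deficient arrays for 16 members, with the mean ± SD of 3 arrays beside the points. The groups do not overlap in any of these panels, so members with overlapping groups, such as Uqcr11 and Cox6b1, are not shown. In Sdhb, Uqcrh and Atp5d control array 3 (triangle) is the control array nearest the RANKL-deficient ones. It is also the nearest in Ndufs5, Uqcr10, Cox4i1, Cox7a1, Atp5e, Ndufaf4 and Cox4i2, but not in Atp5g2, Ndufaf3, Ndufa7 or Cox5a.

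In complex III, 7 of 9 genes measured higher, with a median of 0.40 (0.24 without control arrays 1 and 2). Its largest differences were in small subunits without redox centres. Uqcr10 read 9.22, 9.74 and 9.93 in control and 10.48, 10.42 and 10.27 in RANKL-deficient arrays. The groups lay apart and differed by 0.76 (SE 0.20, limma adjusted p = 0.438), and by 0.46 against control array 3 alone. Uqcrh, the hinge protein near cytochrome c1, read 10.57, 10.55 and 11.14 in control and 11.29, 11.62 and 11.44 in RANKL-deficient arrays. Its difference was 0.69 (SE 0.19, limma adjusted p = 0.475), and 0.31 against control array 3 alone.

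Uqcr11 read 8.17, 6.93 and 7.61 in control and 7.96, 8.37 and 8.27 in RANKL-deficient arrays, which overlapped. Its 2 probe sets gave 0.63 and 1.29, the widest disagreement among members with several probe sets. Without control array 2 the difference of 0.63 was 0.31. The core protein Uqcrc1 read 6.96, 6.74 and 7.08 in control and 7.70, 7.30 and 6.98 in RANKL-deficient arrays, also overlapping, and its difference of 0.40 was 0.21 without RANKL-deficient array 1. The redox-active subunits Cyc1 (cytochrome c1) and Uqcrfs1 (the Rieske iron-sulfur protein) differed by 0.12 (SE 0.12) and −0.17 (SE 0.21), and Uqcrb differed by −0.19.

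Cytochrome c itself, the mobile carrier between complexes III and IV, read 9.55, 9.59 and 9.16 in control and 9.63, 9.68 and 9.92 in RANKL-deficient arrays for Cycs. The groups barely lay apart and differed by 0.31 (SE 0.16, limma adjusted p = 0.658). Against control array 3 alone the difference was 0.59. Its other probe sets gave 0.14 (SE 0.15) and −0.19 (SE 0.54). The last was far less bright, averaging 4.88 in control and 4.69 in RANKL-deficient arrays, and its control arrays read 6.08, 4.06 and 4.50. The direction therefore differed on this low and widely spread probe set only.

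All 4 genes of complex II, the enzyme shared with the tricarboxylic acid cycle, measured higher, with a median of 0.36. Sdhb, the iron-sulfur subunit, read 7.00, 6.89 and 7.56 in control and 7.67, 7.76 and 7.98 in RANKL-deficient arrays, a difference of 0.66 (SE 0.20, limma adjusted p = 0.519). Control array 3 was again the nearest, and the difference against it alone was 0.25. Sdhc, a membrane anchor, read 8.56, 8.56 and 8.80 in control and 8.86, 8.83 and 8.96 in RANKL-deficient arrays, with a difference of 0.24 (SE 0.13), or 0.085 against control array 3 alone. The other anchor Sdhd differed by 0.48 (SE 0.25) and the flavoprotein Sdha by 0.16 (SE 0.19), with overlapping groups. Without control arrays 1 and 2 the median of complex II was 0.12.

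Complex I, the largest complex, had 25 of 36 subunit genes higher and a median of 0.17. Groups lay apart with higher values for 8 subunits (22.2%), against 12.0% of the 4985 highest-level genes. They lay apart with lower values for 2 (5.56%), a share near the 5.44% of those genes. The 4 subunits with the smallest p were all supernumerary, that is outside the catalytic core. So were 28 of the 34 subunits other than Ndufa4 and Ndufa4l2. Ndufa7 read 8.12, 7.94 and 8.05 in control and 8.58, 9.08 and 8.49 in RANKL-deficient arrays, a difference of 0.68 (SE 0.18, limma adjusted p = 0.438). Ndufs5 read 9.95, 9.50 and 10.46 in control and 10.82, 10.74 and 10.71 in RANKL-deficient arrays. Its control arrays were widely spread (SD 0.48) and its RANKL-deficient arrays close together (SD 0.06), with a difference of 0.79 (SE 0.24), and 0.30 against control array 3 alone.

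Ndufv3 read 8.68, 8.55 and 8.81 in control and 9.07, 9.21 and 8.90 in RANKL-deficient arrays, a difference of 0.38 (SE 0.14). Ndufc1 read 8.42, 8.08 and 8.34 in control and 9.08, 8.60 and 8.53 in RANKL-deficient arrays, a difference of 0.45 (SE 0.19), or 0.28 without RANKL-deficient array 1. In each the groups lay apart. Ndufa11 read 9.20, 10.28 and 9.87 in control and 10.14, 10.15 and 9.85 in RANKL-deficient arrays, which overlapped, and its 2 probe sets gave 0.26 and 0.78.

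Of the conserved catalytic core subunits encoded in the nucleus, 6 were measured, with a median of 0.024. Ndufs8 differed by 0.31 with groups apart, and Ndufs7 by 0.17. Ndufs1, Ndufv1 and Ndufv2 differed by 0.029, 0.019 and −0.018. Ndufs3 read 9.18, 9.13 and 9.21 in control and 8.94, 8.89 and 8.98 in RANKL-deficient arrays. The arrays within each group agreed closely, and the groups differed by −0.24 (SE 0.11, limma adjusted p = 0.631). The other 28 subunits, leaving out Ndufa4 and its paralog Ndufa4l2, had a median of 0.22 and ran from Ndufa6 at −0.37, also with groups apart, to Ndufs5.

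The assembly factors of complex I spread in both directions, with 4 of 7 higher. Ndufaf3 and Ndufaf4, which act together at an early step of assembly, had opposite signs. Ndufaf3 read 7.51, 7.45 and 7.35 in control and 8.32, 8.14 and 8.15 in RANKL-deficient arrays, a difference of 0.77 or 1.70-fold (SE 0.12, limma adjusted p = 0.253). Ndufaf4 read 7.13, 7.65 and 7.04 in control and 6.61, 6.95 and 6.22 in RANKL-deficient arrays, a difference of −0.67 (SE 0.24, limma adjusted p = 0.582), or −0.44 against control array 3 alone. For both the groups lay apart, so leaving arrays out could not turn their signs. The signs also held under median centring, quantile and cyclic loess normalization.

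Ndufaf5 read 6.67, 5.79 and 5.68 in control and 6.26, 6.53 and 6.52 in RANKL-deficient arrays. Ndufaf2 read 7.57, 6.82 and 7.34 in control and 7.45, 7.81 and 7.04 in RANKL-deficient arrays. Both overlapped, with differences of 0.39 and 0.19. With single arrays left out, Ndufaf5 ran from 0.20 to 0.70 and Ndufaf2 from −0.018 to 0.39.

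**Figure D5:**
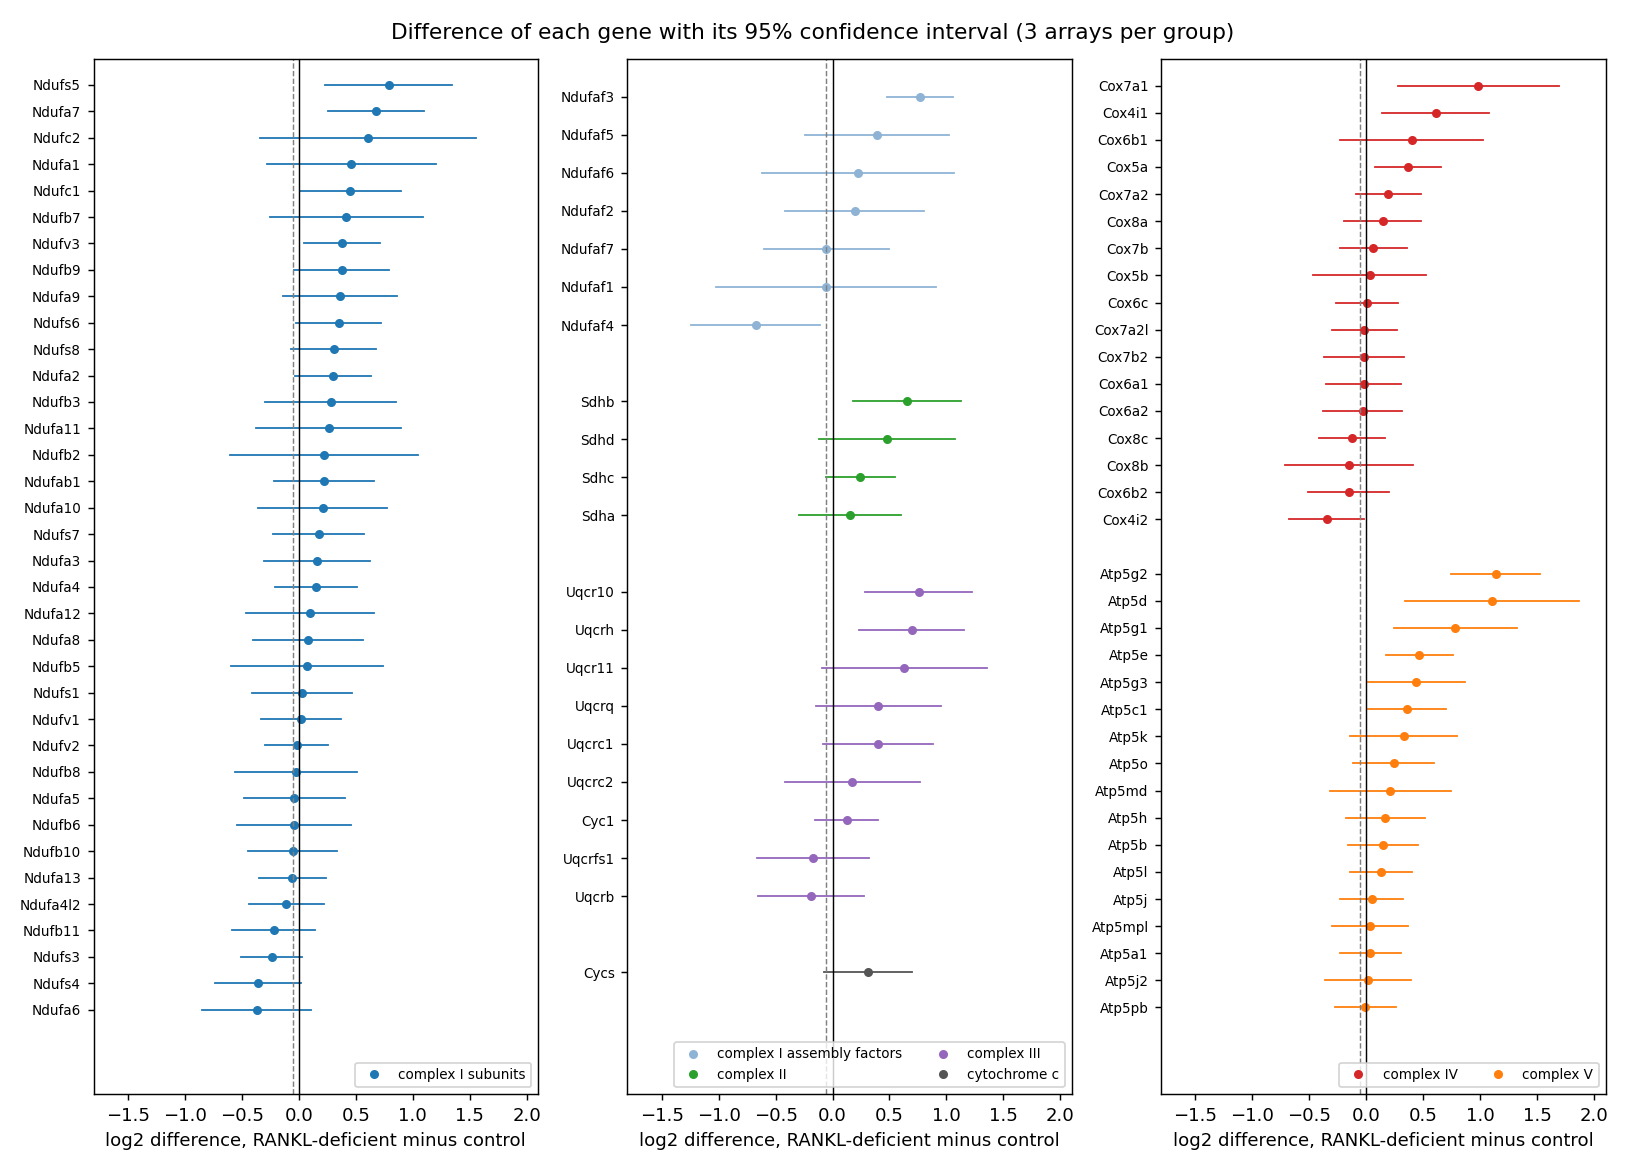
Difference of each of the 91 members (log2, RANKL-deficient minus control, horizontal axis) with its 95% confidence interval from limma, by complex; the dashed line is the median of all genes (−0.054). Intervals above 0 are found in each complex but not for cytochrome c, and include Atp5g2 (0.75 to 1.52) and Ndufaf3 (0.47 to 1.06), and those below 0 are Ndufaf4 and Cox4i2.

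In complex IV, 9 of 17 genes measured higher and the median was 0.0053. The sign of this median turned under quantile normalization (−0.068) and cyclic loess (−0.043), and the median was 0.18 without control arrays 1 and 2. Its members include isoforms known mainly from muscle, lung or testis. Among the 10 other genes, 8 were higher, with a median of 0.10. Cox4i1, the widespread isoform of subunit 4, read 10.07, 9.45 and 10.12 in control and 10.52, 10.40 and 10.54 in RANKL-deficient arrays, a difference of 0.61 (SE 0.20, limma adjusted p = 0.552), or 0.37 against control array 3 alone. Its lung and hypoxia isoform Cox4i2 read 5.13, 5.12 and 4.89 in control and 4.54, 4.77 and 4.79 in RANKL-deficient arrays, a difference of −0.35 (SE 0.14), or −0.19 against control array 3 alone. Both pairs of groups lay apart, in opposite directions. Cox4i2 lay below the median level of all genes (5.12), where most genes measured lower in RANKL-deficient arrays: of the 4984 genes ranked just below that median, 73.8% did.

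Cox5a read 9.60, 9.47 and 9.47 in control and 10.01, 9.81 and 9.82 in RANKL-deficient arrays, a difference of 0.37 (SE 0.12, limma adjusted p = 0.567). Cox7a1, the heart and skeletal muscle isoform, read 5.54, 5.08 and 5.73 in control and 6.96, 6.47 and 5.86 in RANKL-deficient arrays. Its RANKL-deficient arrays were widely spread (SD 0.55) and the lowest was close to control array 3, and the difference of 0.98 (SE 0.30, limma adjusted p = 0.517) ranged from 0.72 to 1.27 with 1 array left out. Its widespread counterpart Cox7a2 read 9.93, 9.91 and 9.79 in control and 10.09, 10.15 and 9.98 in RANKL-deficient arrays, a difference of 0.19.

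For the pairs Cox6a1 and Cox6a2, Cox6b1 and Cox6b2, and Cox8a and Cox8b, the groups overlapped. Cox6a1 read 12.45, 12.47 and 12.16 in control and 12.25, 12.42 and 12.34 in RANKL-deficient arrays, a difference of −0.023. Its muscle isoform Cox6a2 read 6.38, 6.33 and 5.98 in control and 6.24, 6.23 and 6.12 in RANKL-deficient arrays, a difference of −0.032. Cox6b1 read 10.88, 11.61 and 11.95 in control and 11.94, 11.98 and 11.73 in RANKL-deficient arrays, with control array 1 far below the rest. The difference of Cox6b1, 0.40, was 0.10 without that array. The testis isoform Cox6b2 read 5.03, 5.11 and 4.83 in control and 4.96, 4.62 and 4.94 in RANKL-deficient arrays.

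Cox8a read 10.52, 10.18 and 10.43 in control and 10.47, 10.66 and 10.44 in RANKL-deficient arrays, a difference of 0.14. Its muscle isoform Cox8b read 5.19, 4.83 and 4.28 in control and 4.79, 4.54 and 4.51 in RANKL-deficient arrays, a difference of −0.15. Cox8c, the testis isoform, read 5.21, 5.03 and 4.95 in control and 4.94, 4.93 and 4.95 in RANKL-deficient arrays, a difference of −0.12 (SE 0.12), with groups apart by a very small gap. The directions of Cox6a1, Cox6a2, Cox6b1, Cox6b2, Cox8a and Cox8b turned under at least 1 alternative.

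Ndufa4, named for complex I but found in complex IV, read 11.33, 11.07 and 11.09 in control and 11.54, 11.15 and 11.25 in RANKL-deficient arrays, a difference of 0.15 (SE 0.15). Its hypoxia-induced paralog Ndufa4l2 read 4.68, 4.57 and 4.29 in control and 4.43, 4.40 and 4.37 in RANKL-deficient arrays, a difference of −0.11 that turned without control arrays 1 and 2. The groups overlapped for both.

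Of the subunits encoded in mitochondrial DNA, 2 had a probe set with 1 symbol, COX2 and ND3. COX2 read 12.80, 12.62 and 12.67 in control and 12.66, 12.63 and 12.69 in RANKL-deficient arrays. ND3 read 12.55, 12.52 and 12.45 in control and 12.51, 12.56 and 12.54. The groups overlapped, with differences of −0.036 (SE 0.12) and 0.033 (SE 0.11).

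Genes around the chain were counted from lists, and none of those named passed the adjusted threshold. Their counts at an unadjusted p under 0.05 are to be read against the 4.25% of all genes higher and 3.9% lower. Among the 4985 highest-level genes these shares were 9.83% and 3.73%. Their counts of genes that measured higher are to be read against 39.5% of all genes and 61.0% of the 4985 highest-level genes. Of 13 tricarboxylic acid cycle enzymes, 11 were higher, with a median of 0.11, and 1 was higher at an unadjusted p under 0.05, the isocitrate dehydrogenase subunit Idh3b (0.95, SE 0.37). Suclg1 and Mdh2 followed at 0.42 (SE 0.18) and 0.28 (SE 0.13). Of 37 assembly and cofactor genes outside the naming rule, 22 were higher (median 0.12), 5 higher and 1 lower at that p. Cox14 and Cox18, assembly factors of complex IV, differed by 0.48 (SE 0.12) and 0.88 (SE 0.32), and Tmem70, an assembly factor of the ATP synthase, by −0.66 (SE 0.22). Atpaf2, an assembly factor of the F1 head, differed by 1.06 (SE 0.44) with overlapping groups, so the ATP synthase assembly factors named here had opposite signs. Atpaf2 was chosen after its values were seen. The next list held 17 genes: carriers, porins and ubiquinone genes, with Etfa, Etfb, Etfdh, Hccs and the ATP synthase inhibitor Atpif1. Of the 17, 12 were higher (median 0.13), with 3 higher (Etfb among them, 0.77, SE 0.29, overlapping groups) and 1 lower at that p.

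The last of these, the ADP/ATP carrier Slc25a4, read 8.78, 8.91 and 8.68 in control and 8.18, 8.11 and 8.22 in RANKL-deficient arrays, a difference of −0.62 (SE 0.12, limma adjusted p = 0.363). Slc25a5, another ADP/ATP carrier, differed by 0.046 (SE 0.18) with overlapping groups. The phosphate carrier Slc25a3, which also supplies the ATP synthase, differed by 0.45 (SE 0.17), and the porin Vdac3 by 0.46 (SE 0.13). Of 18 biogenesis regulators and genes of the mitochondrial DNA machinery, 11 were higher, with a median of 0.041. Myc was the 1 regulator at an unadjusted p under 0.05 (0.87, SE 0.31). Ssbp1, which binds single-stranded mitochondrial DNA, and Polrmt, the mitochondrial RNA polymerase, differed by 0.23 (SE 0.13) and −0.23 (SE 0.15).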

How the data were processed

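The authors deposited log2 values of 35556 probe sets for each of 6 arrays. The submitters' processing notes name RMA and Affymetrix Expression Console. The sources used here give no version, setting or build. The arrays' distributions were not equal as deposited, so other normalizations were tried. RNA was amplified from 2 ng per the labels' protocols, and the number of arrays limits the precision.

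Probe sets were named by the platform annotation (21789 with 1 symbol, 1621 with several, 12146 with none), with symbols updated by Entrez identifier for 19855 of 19938 genes against a GRCm38.p6 table. Probe sets with several symbols were left out. RANKL-deficient minus control differences came from limma (version 3.58.1, R 4.3.3; lmFit and eBayes, no block, no filter). Tests were two-sided and p-values were adjusted by Benjamini-Hochberg over the 19938 genes. Confidence intervals are 95%. The fit was tested on simulated data.

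The members and lists were chosen with earlier results of these data known. Per-array values are given for the 4 members of each complex with the smallest p (2 for complex II), Cycs, the c subunit genes, isoform pairs, the largest differences in each direction and the widest disagreements between probe sets, and values or counts for others. Members singled out beyond this, such as Atp5c1, Ndufs3 and the core or stalk subunits, were chosen after their values were seen. Same-numbered arrays did not deviate together (correlations −0.02, 0.05 and 0.03), so no pairing was used. Alternatives were other normalizations, probe set rules, a level filter, variance models, arrays left out and the replicate block. The driver of the Cre allele is not reported here.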

Additional observations from a re-analysis of the deposited data

Results flagged for a closer look

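Of the probe sets left out for carrying several symbols, at least 1 of which meets the naming rule, 2 had every RANKL-deficient array above every control array. Among the tested genes this held for 5.28% of all genes and 12.0% of the 4985 highest-level genes. Probe set 10439398 read 7.67, 8.45 and 8.51 in control and 8.84, 8.80 and 8.59 in RANKL-deficient arrays, a log2 difference of 0.5381. Probe set 10462193 read 7.69, 8.53 and 8.77 in control and 9.16, 9.05 and 8.86 in RANKL-deficient arrays, a log2 difference of 0.6947. In both, control array 1 was well below the other arrays. The arrays had the same order on both probe sets, so the 2 may not be separate observations. Whether they read shared transcripts was not tested. The other 4 such probe sets overlapped between the groups.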

How the results depend on the processing

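No member passed the adjusted threshold in the reported fit or in 16 alternative fits, and the lowest adjusted p of any member was 0.133 (Atp5d without control array 3). For Atp5g2 the difference ran from 0.99 to 1.22 and the adjusted p from 0.134 to 0.702. Of the alternative values of the members described singly, 522 kept their direction and call and 18 turned direction. The 522 include values that could not turn. The trended variances, the test over all probe sets, the level filter and the block left each difference unchanged. Members with fully separate groups could not turn with arrays left out. The tally therefore overstates how stable the directions were. The causes of the changes below were not tested.

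The 1 gene called over all genes became 2 with trended, robust variances, 0 with the replicate block and 0 without control arrays 1 and 2, and 0 to 1 with single arrays left out. The block changed no call of a member. Members lower at an unadjusted p under 0.05 numbered 2, but 4 under cyclic loess and 1 under median centring, the level filter, the replicate block or without tissue-restricted isoforms, the last chosen after seeing the data, and 0 to 3 with single arrays left out. Shares of all genes lower at that p were not computed for the alternative fits. Members higher at that p numbered 17, against 4.25% of all genes, and 12 to 23 with single arrays left out. Of all genes, 3.31% were higher where 12 members were (without RANKL-deficient array 1) and 6.74% where 23 were (without control array 3). Under quantile and cyclic loess normalization 12 members were higher in each, against 3.72% and 4.21% of all genes. Fully separate groups with higher values numbered 25, but 15 under quantile normalization and 27 to 35 with single arrays left out, where fewer arrays make separation easier. Those with lower values numbered 5, but 3 under median centring, the level filter or without tissue-restricted isoforms, and 5 to 11 with single arrays left out. Shares of all genes with fully separate groups were not computed for these alternatives, so their counts have no background beside them.

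Without control arrays 1 and 2, 10 members were higher and 0 lower at an unadjusted p under 0.05, and 45 and 11 were fully separate. The p-values of this fit assume that the lone control array varies like the other group. The 10 and 0 therefore cannot be read against the counts of the reported fit, and no conclusion is drawn from them. With a lone control array the groups lie apart more easily, so 45 and 11 cannot be read against those counts either. The share of all genes with fully separate groups was not computed without these arrays. The medians without them were 0.12 for complex II, 0.24 for complex III, 0.18 for complex IV and 0.11 for complex V. The median of the assembly factors was 0.37 with array weights and 0.013 to 0.36 with single arrays left out. The median of complex II was 0.21 to 0.50 with single arrays left out, that of complex III 0.25 to 0.41 and that of complex IV −0.040 to 0.081. For complex IV it was −0.043 under cyclic loess and −0.068 under quantile normalization. For complex V it was 0.12 under cyclic loess, 0.17 with the mean of probe sets, 0.26 under median centring, 0.070 under quantile normalization and 0.15 to 0.27 with single arrays left out.

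Among the members that turned direction, the reported differences reached 0.40 (Cox6b1), 0.26 (Ndufa11) and 0.19 (Ndufaf2). Under median centring Cox6a1 was 0.028 and Cox6a2 0.019, and under quantile normalization Cox8a was −0.0087. Without control arrays 1 and 2, Cox6a1 was 0.18, Cox6a2 0.22, Cox6b1 −0.068, Cox6b2 0.011, Cox8b 0.34 and Ndufa4l2 0.12. With single arrays left out, Cox6a1 ran from −0.13 to 0.033, Cox6a2 from −0.16 to 0.043, Cox8b from −0.39 to 0.062, Ndufa11 from −0.030 to 0.51 and Ndufaf2 from −0.018 to 0.39. The files give no detection call, so signal over background is unknown for the low members, such as Cox4i2 and Cox8b.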
